A study of Mus musculus with 68 samples.

Results

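The genes described here encode the enzymes that join foreign or waste molecules to glutathione, glucuronic acid or sulfate, together with the aldo-keto reductases that reduce reactive carbonyls. They were chosen by symbol from the deposited expression table: the glutathione S-transferases of the Gsta, Gstk, Gstm, Gsto, Gstp and Gstt classes, the UDP-glucuronosyltransferases of the Ugt1a and Ugt2 families, the sulfotransferases (Sult), and the aldo-keto reductases of the Akr1a to Akr1e classes. The rule found 71 of 23356 rows, and no measured value entered it. Of these 71 genes, 45 reached 1 FPKM (fragments scaled to transcript length and library size) in at least 2 of 23 specimens and could be tested, 39 had a mean of 20 FPKM or more in at least 1 group, and 23 stayed below 1 FPKM everywhere.

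The gut lining meets food toxins, drugs and bacterial products first, and its absorptive cells carry much of this defence. Glutathione S-transferases attach glutathione to electrophiles, glucuronosyltransferases in the endoplasmic reticulum attach glucuronic acid to bile pigments, steroids and drugs, and sulfotransferases transfer sulfate from its activated donor PAPS to phenols and sterols. Aldo-keto reductases use NADPH to turn aldehydes and ketones into alcohols. The products are then exported by ABC transporters, and many of the genes are known to answer to the stress sensor NRF2 and to nuclear receptors.

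The study asked what loss of Cftr, the epithelial chloride and bicarbonate channel, does in intestinal tumours of C57BL/6 mice that were 3 months old. The Apc-wildtype mice were Cftr wildtype, with 2 specimens of normal colon and 2 of normal duodenum, or lacked Cftr through a floxed allele and Cre driven by the Villin promoter, which is active in intestinal epithelium, with 2 normal colons, 2 normal duodena, 2 duodenal tumours and 1 colon tumour. The ApcMin mice carry a truncating Apc mutation and form many intestinal tumours; they gave 2 colon and 2 ileum tumours each from Cftr-wildtype and Cftr-knockout animals and 2 colon and 2 duodenal tumours from Cftr-heterozygous animals. The 12 groups hold 23 specimens, and the labels, which were followed here, give 10 animal numbers and 2 normal specimens a genotype and organ. The design text differs, with 23 mice in all and normal tissue from 3 mice of each genotype. By the labels, the ApcMin tumours of each Cftr genotype and organ carry 1 animal number, so p-values over tumours measure the spread between specimens of few animals. How Cftr was removed in the ApcMin mice is not given in the sources used here.

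The 68 sequenced columns had a relative depth of 0.717 to 1.32. Gene-level Cftr was 31.3 and 32.0 FPKM in wildtype duodenum, 33.0 and 47.2 in knockout duodenum, 22.2 and 21.03 in wildtype colon and 30.5 and 25.9 in knockout colon, and it was 40.1 and 31.2 in ApcMin knockout ileum tumours. It was therefore no lower in the normal specimens labelled knockout, and a value over the whole gene cannot show the loss of an exon, so these levels do not check the labels. The wildtype duodenum specimens differed by no more than sequencing lanes do (a ratio of 0.987 in run 1 and 1.05 in run 2, against 1.96 to 5.47 for other pairs) and were counted as 1 sample, so normal duodenum enters tests with n = 3. The run 1 library of wildtype colon specimen 2 held small-intestinal transcripts (Apoa1 526 FPKM, against 4.08 in run 2) and was left out. Xist exceeded Ddx3y in 13 specimens, among them all 12 ApcMin tumours, and Ddx3y exceeded Xist in the other 10, among them all 8 normal specimens, so sex and ApcMin tumour against normal tissue cannot be told apart. In bulk tissue, fewer cells of a type and less RNA per cell cannot be told apart either.

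The families lie mostly in clusters of related genes (GRCm38, GENCODE M21). The 7 Gstm genes span 149 kb at chr3:107895821-108044894, and Gstm5 is the only one of them on the plus strand. The 10 Ugt2 genes lie at chr5:86889767-87490871, the 8 Akr1c genes at chr13:4049011-4586541, the 4 Akr1b genes at chr6:34302434-34423142, and Gsta1, Gsta2 and Gsta4 at chr9:78182774-78355788. The 8 Ugt1a genes at chr1:88055388-88220002 overlap and share exons. Reads of near-identical neighbours (Gsta1 and Gsta2, Gstp1 and Gstp2, and genes within the Gstm, Akr1c, Ugt1a and Ugt2b clusters) can be split between genes in the authors' counting, so their single values are less certain than family totals.

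Promoter windows from RefSeq (GRCm38.p6, 250 bases before to 50 after the start) were found for 62 of the 71 genes. The 4 shown belong to genes that mark the main patterns: Ugt2a3, high in duodenum, at chr5:87337146-87337445 on the minus strand, Sult1a1, high in colon, at chr7:126676369-126676668 on the minus strand, Gstm5, higher in ApcMin heterozygous tumours of both organs, at chr3:107895604-107895903 on the plus strand, and Gsta3, whose tumour change differed between organs, at chr1:21240335-21240634 on the plus strand. Capitals mark, on either strand, the antioxidant response core TGACNNNGC through which NRF2 acts, the xenobiotic response core GCGTG of the Ah receptor, and the motif GTTAAT of HNF1, a gut and liver factor.
Ugt2a3: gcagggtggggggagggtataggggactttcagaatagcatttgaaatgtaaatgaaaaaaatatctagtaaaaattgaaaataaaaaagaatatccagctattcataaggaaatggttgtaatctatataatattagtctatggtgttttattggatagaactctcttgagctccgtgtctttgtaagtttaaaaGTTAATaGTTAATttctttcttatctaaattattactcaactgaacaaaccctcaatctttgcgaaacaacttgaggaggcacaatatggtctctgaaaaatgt
Sult1a1: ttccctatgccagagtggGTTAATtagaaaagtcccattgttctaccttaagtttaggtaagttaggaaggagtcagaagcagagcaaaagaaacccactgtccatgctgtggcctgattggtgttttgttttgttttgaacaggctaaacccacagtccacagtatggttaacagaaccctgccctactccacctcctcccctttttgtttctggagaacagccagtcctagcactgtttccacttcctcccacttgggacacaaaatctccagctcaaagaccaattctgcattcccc
Gstm5: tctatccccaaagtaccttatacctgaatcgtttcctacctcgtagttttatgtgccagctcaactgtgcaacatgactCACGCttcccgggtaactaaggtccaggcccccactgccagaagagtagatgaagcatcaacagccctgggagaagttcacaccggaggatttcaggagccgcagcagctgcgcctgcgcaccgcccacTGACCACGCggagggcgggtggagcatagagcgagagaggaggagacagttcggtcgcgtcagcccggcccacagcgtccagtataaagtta
Gsta3: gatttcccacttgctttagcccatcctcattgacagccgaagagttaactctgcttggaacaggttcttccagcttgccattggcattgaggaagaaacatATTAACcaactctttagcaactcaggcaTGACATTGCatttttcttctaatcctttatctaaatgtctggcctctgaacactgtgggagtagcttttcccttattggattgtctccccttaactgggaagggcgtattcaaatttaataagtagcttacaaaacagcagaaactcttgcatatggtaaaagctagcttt
GTTAAT stands 54 and 47 bases before the Ugt2a3 start and 232 bases before that of Sult1a1. In Gstm5 the antioxidant core at 42 bases before the start overlaps a xenobiotic core at 38, and another xenobiotic core lies at 171. In Gsta3 the antioxidant core is 121 and the HNF1 motif 149 bases upstream. Counting the first listed window of each gene, 3 of the 62 (4.84%) held TGACNNNGC against 12.5% of the 27025 windows of all genes, 10 (16.1%) held GCGTG against 32.5%, and 14 (22.6%) held GTTAAT against 7.20%. These are counts of letters in short windows and show no binding.

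Levels were set side by side by family first, as summed FPKM, a scale that is already per transcript length. In wildtype duodenum the Gstk, Gsto, Gstp and Gstt genes summed to 1649 ± 25.2 FPKM (SD, n = 2), the Gstm genes to 1435 ± 23.8, the Akr1c genes to 864 ± 12.9, the Ugt2 genes to 759 ± 4.85, the Gsta genes to 710.0 ± 6.20 and the Ugt1a genes to 409.9 ± 3.28. In wildtype colon the same families summed to 871 ± 74.8, 542 ± 52.2, 493 ± 3.99, 260.3 ± 10.3, 60.01 ± 11.6 and 139 ± 4.42. The Sult1 genes went the other way, with 322 ± 6.20 in wildtype duodenum and 434 ± 31.4 in wildtype colon. The 2 wildtype duodenum specimens differed by no more than sequencing lanes do, and the tests did not count them as separate samples. Their SDs therefore do not measure the spread between animals and cannot be set beside those of colon. Of the 10 family sums, only that of Sult1 was higher in colon, in either Cftr genotype.

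**Figure D1:**
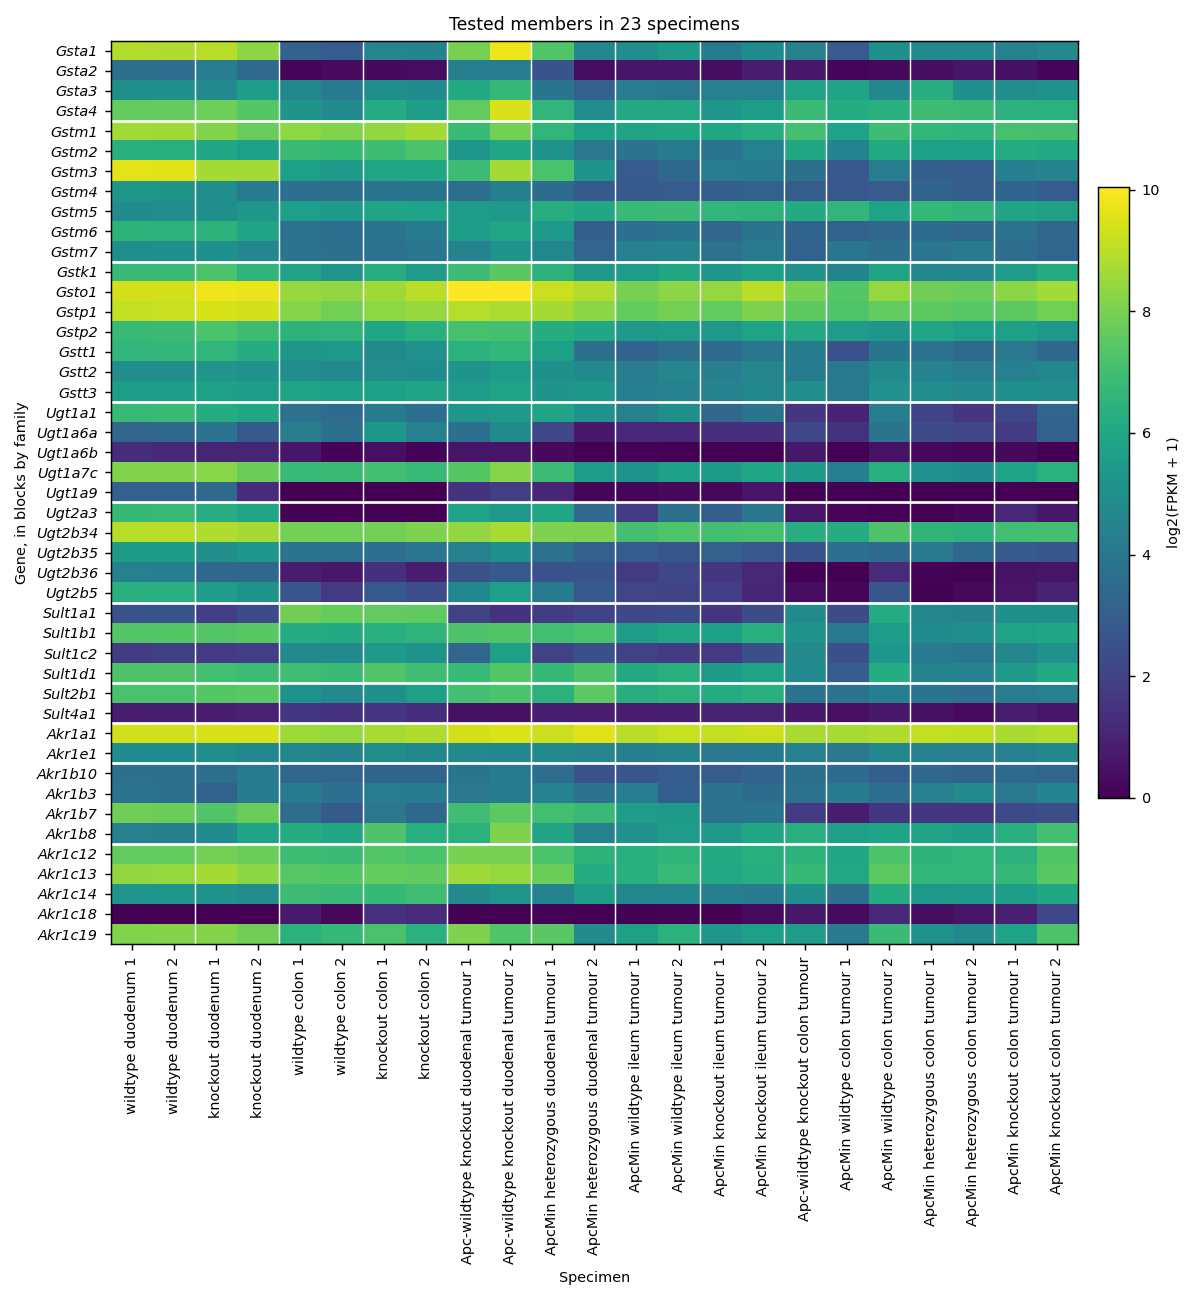
Levels of the 45 tested genes as colour, log2(FPKM + 1), with 1 row a gene in blocks by family and 1 column for each of the 23 specimens, thin lines parting the groups. Ugt2a3, Akr1b7 and Gsta1 are bright in duodenum and dark in colon, Sult1a1 is brightest in normal colon, and Akr1a1 is bright in every column.

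Some enzymes were high in every specimen. Akr1a1, an aldehyde reductase of broad substrate range (chr4:116636510-116651680), ranged from 359.5 FPKM in wildtype colon 2 to 774 in ApcMin heterozygous duodenal tumour 2. Gsto1, an omega-class transferase with thiol transferase activity, ranged from 169 in ApcMin wildtype colon tumour 1 to 1055 in Apc-wildtype knockout duodenal tumour 2. Gstp1, the pi-class transferase, ranged from 156 in ApcMin wildtype colon tumour 1 to 693 in knockout duodenum 1. At the other end, 10 of 12 sulfotransferases outside Sult1 and 4 of 10 Ugt2 genes stayed below 1 FPKM in every specimen. Sult2a3, Sult2a4, Sult2a5 and Sult2a7 were listed at 0 throughout. Ugt2b38 reached 44.7 FPKM in Apc-wildtype knockout duodenal tumour 2 and at most 0.647 elsewhere, and with 1 specimen above the minimum it was not tested.

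Normal duodenum and colon differed in most of these genes. Relative to colon, 27 of the 45 tested genes rose and 8 fell in duodenum, where 28.9% of all genes tested rose and 27.3% fell, and the median change was 0.94 on the log2(FPKM + 1) scale, against 0.02 over all genes. All 5 tested Ugt2 genes, 4 of 5 Ugt1a genes, 5 of 7 Gstk, Gsto, Gstp and Gstt genes and 3 of 4 Gsta genes rose, and none of those families had a gene that fell. The Gstm genes split, with 4 of 7 up and 2 down. The test was limma's moderated fit over all genes with Benjamini-Hochberg adjustment and a threshold of 0.05, here averaged over Cftr genotype, with n = 3 duodena and 4 colons that share animals.

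**Figure D2:**
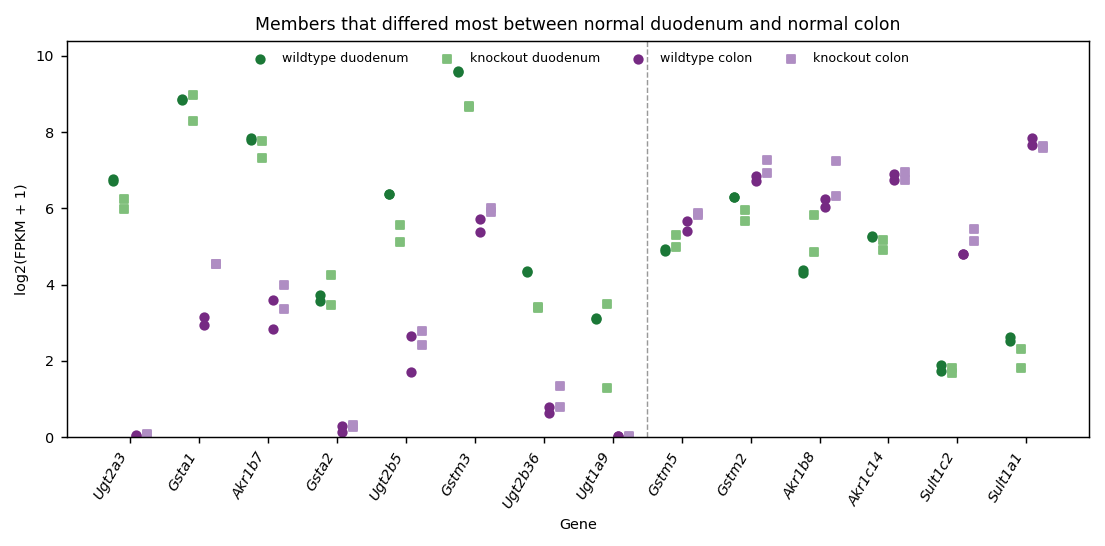
Levels of 14 genes that differed between normal duodenum and normal colon, as log2(FPKM + 1), with 1 point a specimen and colours and shapes for organ and Cftr genotype. The 8 genes left of the dashed line are higher in duodenum, such as Ugt2a3 at 62.3 to 108 FPKM against at most 0.0496, and the 6 right of it are higher in colon, such as Sult1a1.

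Ugt2a3, a glucuronosyltransferase known to act on bile acids (chr5:87324972-87337195), measured 105 and 108 FPKM in the wildtype duodenum specimens and 74.8 and 62.3 in knockout duodenum. In the 4 colons it was 0.0326, 0.0199, 0.0496 and 0.0390 FPKM. The groups were far apart, with a log2 change of 6.38 (SE 0.53, adjusted p = 6.16e-07). Its neighbours Ugt2b5 (54.0 against 4.43 FPKM) and Ugt2b36 (12.8 against 0.890) were also higher in duodenum, and Ugt2b34 was abundant in both organs.

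Akr1b7, a reductase of lipid-derived aldehydes (chr6:34412334-34423142), was 230.3 and 221 FPKM in wildtype duodenum and 160.2 and 218 in knockout duodenum. The colons held 11.0, 6.18, 15.0 and 9.36 FPKM, a difference of 19.4-fold (adjusted p = 2.43e-08). Its neighbour Akr1b8, which reduces retinal and other carbonyls, showed the opposite order: 34.5 FPKM in duodenum and 92.2 in colon, a log2 change of -1.61. The cluster of 4 genes thus held members with opposite organ preference.

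Among glutathione S-transferases, Gsta1 was 467 and 460.2 FPKM in wildtype duodenum, 500.4 and 315 in knockout duodenum and 7.93, 6.63, 22.5 and 22.4 in the colons. Its log2 change was 4.95 (adjusted p = 2.96e-05). Gsta2, whose sequence is close to that of Gsta1, followed at 13.2 against 0.197 FPKM. Gstm3 was 785 and 767 FPKM in wildtype duodenum, 407 and 412 in knockout duodenum and 40.7 to 63.8 in colon, a log2 change of 3.38. Gstm2 and Gstm5 were lower in duodenum, at 63.05 against 123 FPKM (adjusted p = 0.0492) and 32.7 against 51.2 (adjusted p = 0.00300). The Gstm2 call was lost without any 1 of the 2 knockout duodena and 4 colons (adjusted p from 0.0652 to 0.114).

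Sult1a1, the phenol sulfotransferase (chr7:126672865-126676432, overlapping Sgf29 on the other strand), was the clearest colon gene of the set. It measured 231, 200.1, 197 and 191 FPKM in the colons and 4.74, 5.18, 2.54 and 3.98 in the duodena (log2 change -5.36, adjusted p = 1.59e-05). Sult1c2 was also lower in duodenum, at 2.42 against 32.7 FPKM. Sult2b1, the sulfotransferase of cholesterol and other sterols, was higher there, at 162 against 35.7 FPKM (adjusted p = 8.38e-06). Akr1c14, a hydroxysteroid dehydrogenase, was lower, at 33.7 against 114 FPKM.

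**Figure D3:**
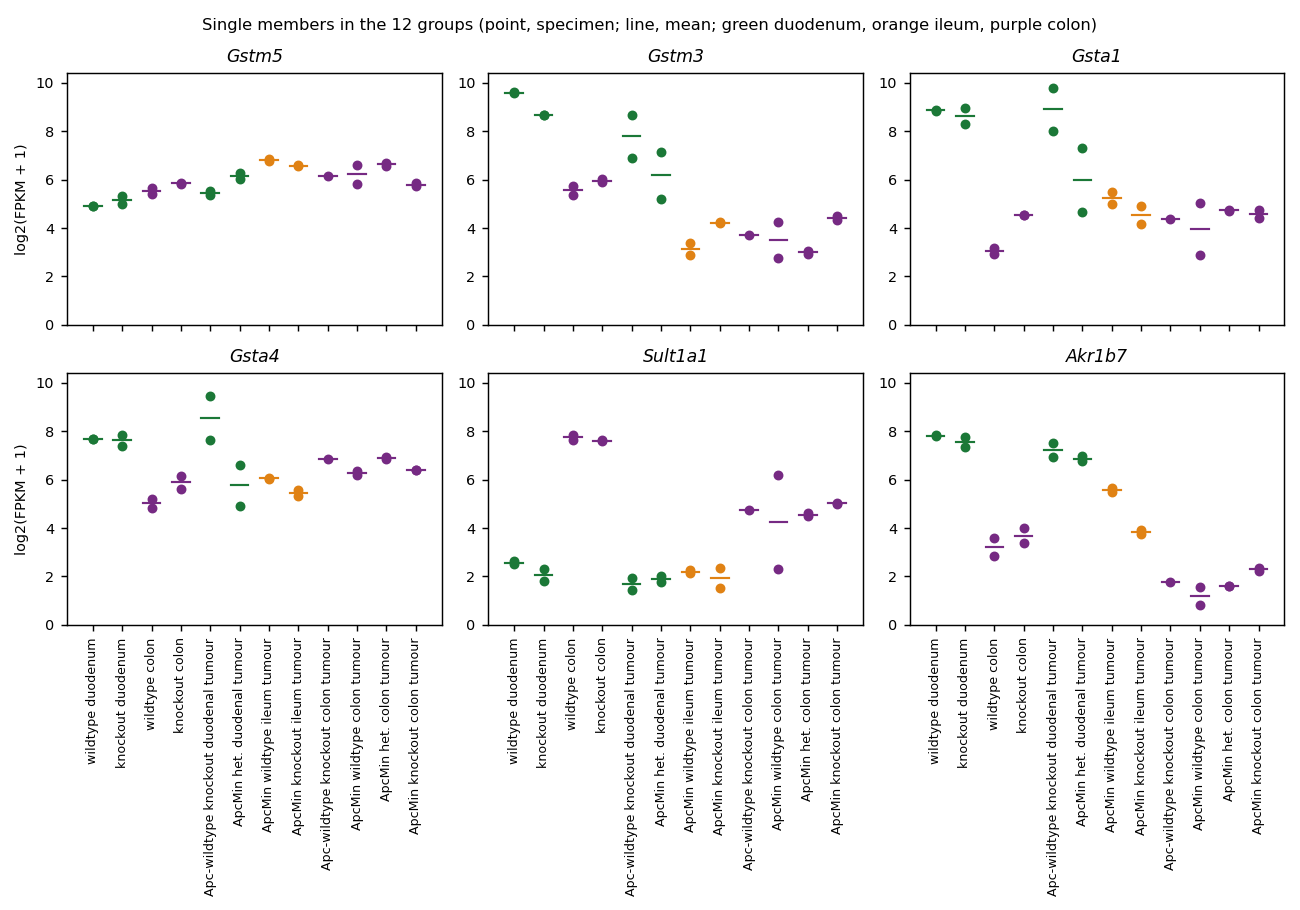
Levels of Gstm5, Gstm3, Gsta1, Gsta4, Sult1a1 and Akr1b7 in the 12 groups as log2(FPKM + 1), with 1 point a specimen, a line at the group mean, and green for duodenum, orange for ileum and purple for colon. Sult1a1 is at 191 FPKM or more in normal colon and at 72.2 or less in every tumour, Akr1b7 is above 100 FPKM in duodenum and duodenal tumours, and Gstm5 spans the narrowest range of the 6.

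Cell composition moved with the organ too. The summed level of 14 small-intestinal enterocyte markers was 30930.3 to 35008 FPKM in duodenum and 338 to 1209 in colon, and all 14 were higher in duodenum. The summed level of 8 smooth muscle markers was 1056 to 1130.1 in duodenum and 2798 to 3563 in colon. The labels give the colon as whole tissue but the duodenum as epithelium, and the design text describes these preparations otherwise, so organ and preparation cannot be told apart. The part of these markers in the gene differences was not tested.

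The same organ contrast was examined within tumours. By the labels, the heterozygous duodenal and colon tumours come from different animals, so organ and animal cannot be told apart in them. In ApcMin heterozygous mice, 16 of the 45 genes were higher in duodenal than in colon tumours and 3 were lower, with 17.2% and 18.6% of all genes (12 in either direction without heterozygous colon tumour 1). Akr1b7 was 126 and 107 FPKM in the duodenal tumours and 2.04 and 2.02 in the colon tumours, a log2 change of 5.27. Ugt1a1, the bilirubin glucuronosyltransferase, stood at 45.4 against 2.59 FPKM in run 1. Sult1a1 kept its order, at 2.72 against 22.5 FPKM. Gsta3 was lower in the duodenal tumours, at 10.5 against 54.3 FPKM (log2 change -2.20, adjusted p = 0.0103), a call lost without heterozygous duodenal tumour 2 or colon tumour 1 (adjusted p = 0.0525 and 0.0614).

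In ApcMin Cftr-wildtype and Cftr-knockout mice, ileum tumours were set against colon tumours. By the labels, ileum and colon tumours of a Cftr genotype carry the same animal number, which the test did not use. Of the 45 genes 7 were higher and 4 lower in ileum, with 12.9% and 11% of all genes. Akr1b7 was 29.7 ± 19.2 FPKM in ileum and 2.63 ± 1.55 in colon tumours (SD, n = 4 each; log2 change 2.95), and Sult2b1 was 79.2 against 17.5. Ugt2a3 was 2.44, 12.2, 7.18 and 14.3 FPKM in the ileum tumours and at most 1.14 in the colon tumours (log2 change 2.61). Gstm2 was lower in ileum, at 16.0 against 57.0 FPKM. The count was 17 when either Cftr-wildtype colon tumour was left out.

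Colon tumours of ApcMin mice carried less of many of these enzymes than normal colon. In the Cftr-wildtype and Cftr-knockout mice, compared in run 2 within genotype, 22 of 45 genes fell and 1 rose, while 23.1% of all genes fell and 22.3% rose. The median change was -0.57, against 0.00 over all genes. In the heterozygous mice, compared in run 1 with colon of both other genotypes, 25 genes fell and 2 rose, with 22.4% and 22.9% of all genes, and the median was -0.88. The comparisons use the same colon specimens, so their likeness is partly shared. The heterozygous comparison called 14 genes without heterozygous colon tumour 2 and 16 without heterozygous colon tumour 1.

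On the log2(FPKM + 1) scale Sult1a1 fell most of the 45 genes in both comparisons, while as a ratio of FPKM means that of Ugt2b5 was larger in the second (5.33 to 0.103 FPKM). From 191 to 231 FPKM in colon it went to 3.95 and 72.2 in the Cftr-wildtype tumours, 31.8 and 31.1 in the knockout tumours and 23.5 and 21.4 in the heterozygous tumours. No tumour reached the lowest normal colon. The log2 change was -3.02 (SE 0.61, adjusted p = 0.00295) in the first comparison and -3.21 (adjusted p = 0.000188) in the second. Sult1b1 and Sult1d1, sulfotransferases of thyroid hormones and of catechols, fell too, with log2 changes of -0.96 and -1.88 in the first comparison and -1.42 and -2.56 in the second.

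Glutathione S-transferases followed by class. Of the 7 tested Gstk, Gsto, Gstp and Gstt genes, 5 fell in the first comparison and 6 in the second, and none rose. Gstt1, a theta-class enzyme acting on small halogenated compounds, went from 34.1 ± 6.13 to 10.7 ± 4.64 FPKM (SD, n = 4 each, run 2; log2 change -1.67). Gstm1 went from 336 ± 51.3 to 113 ± 37.9 FPKM (log2 change -1.64), and Gstm3 from 53.8 ± 9.57 to 16.1 ± 7.10 (log2 change -1.80). The Gsta class stood apart: none of its 4 genes fell in either colon comparison. Of these, Gsta2 could hardly fall, at 0.233 and 0.161 FPKM in knockout and wildtype colon. Gsta4, which conjugates the lipid aldehyde 4-hydroxynonenal, was 35.7, 27.7, 71.2 and 48.1 FPKM in colon and 73.3, 82.2, 84.4 and 84.2 in the first 4 tumours. It rose by 0.93 on the log2 scale (SE 0.30, adjusted p = 0.0268), a call lost without wildtype colon 2, knockout colon 2, wildtype tumour 2 or either knockout tumour (adjusted p from 0.0519 to 0.0870).

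**Figure D4:**
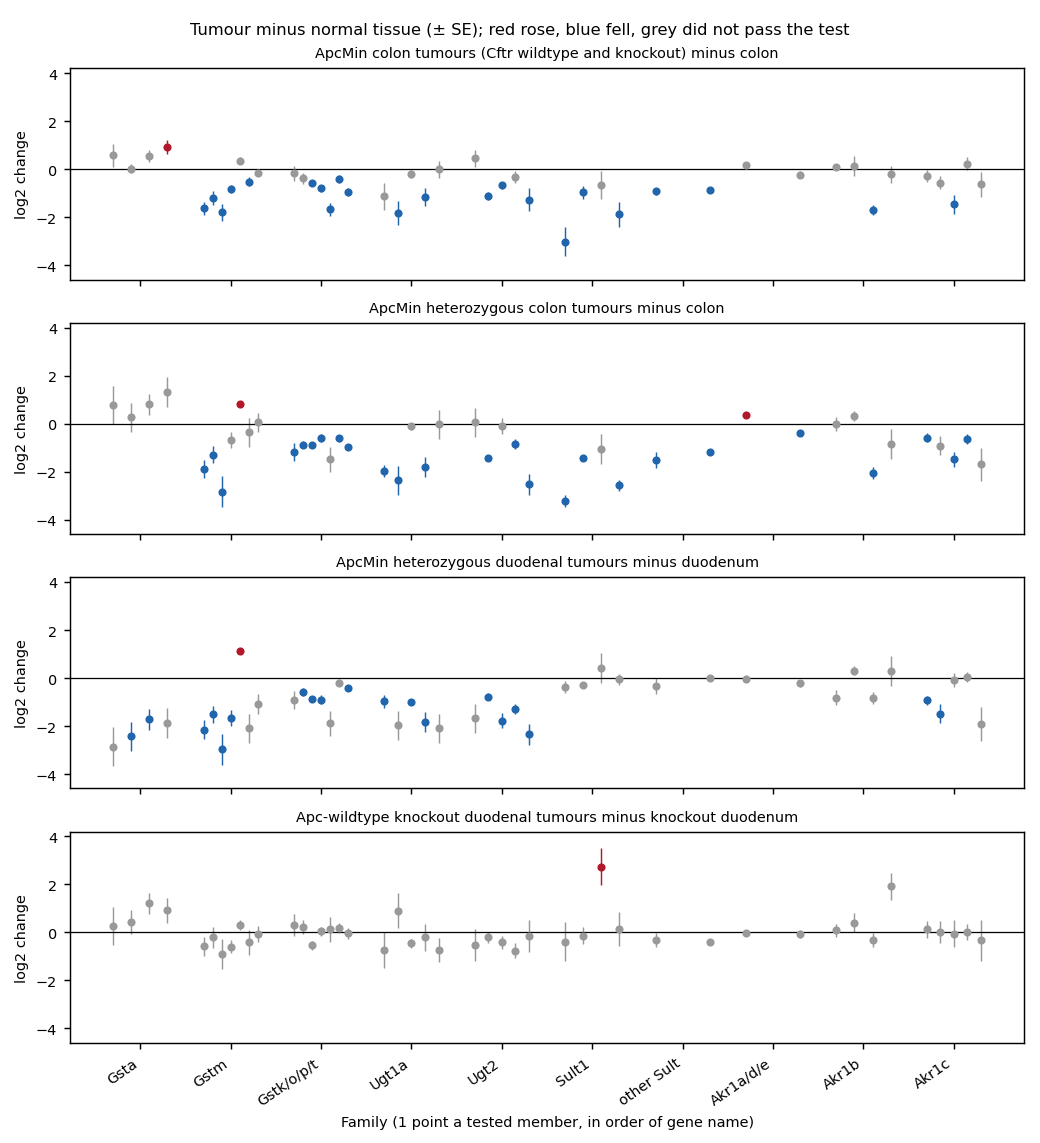
Change of each tested gene in tumours relative to normal tissue of the same organ, on the log2(FPKM + 1) scale with its standard error, by family, in 4 panels. Genes that rose are red, genes that fell blue and those that did not pass the test grey: 22 of 45 are blue in ApcMin colon tumours, 25 in heterozygous colon tumours, 19 in heterozygous duodenal tumours and none in Apc-wildtype knockout duodenal tumours.

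Glucuronosyltransferases and reductases gave further examples. Ugt2b34 went from 254 ± 17.9 to 121 ± 33.1 FPKM in the first colon comparison (log2 change -1.11) and from 248 ± 18.6 to 89.9 ± 4.65 in the second (log2 change -1.45). Ugt1a1 was 13.3 ± 2.96 FPKM in colon and 2.59 ± 0.793 in heterozygous tumours (log2 change -1.97). Akr1b7, already low in colon at 10.3 ± 3.56 FPKM, was 2.63 ± 1.55 in the Cftr-wildtype and knockout tumours (log2 change -1.70). Akr1c14 fell from 115 ± 8.51 to 49.4 ± 26.8 FPKM (log2 change -1.46). The 2 genes that rose in heterozygous colon tumours were Akr1a1, 548 ± 3.42 against 438 ± 38.5 FPKM (log2 change 0.36, adjusted p = 0.0464), and Gstm5. The Akr1a1 call was lost without either heterozygous tumour or either knockout colon (adjusted p from 0.0690 to 0.179).

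Gstm5, the mu-class gene on the opposite strand of its cluster (chr3:107895821-107898686), rose in heterozygous tumours of both organs, where 3 of the 7 tested Gstm genes in colon and 4 in duodenum fell. It was 102 and 93.6 FPKM in heterozygous colon tumours against 41.4 to 57.9 in colon (log2 change 0.81, adjusted p = 0.00225 in run 1). It was 76.0 and 64.6 in heterozygous duodenal tumours against 28.7 to 38.5 in duodenum (log2 change 1.13, SE 0.13, adjusted p = 0.00295). In the Cftr-wildtype and knockout colon tumours it was 97.3, 56.2, 56.7 and 51.7 FPKM and did not pass (log2 change 0.36, adjusted p = 0.0645). The ileum tumours, with no normal ileum to compare, held 92.4 to 114 FPKM.

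Tissue make-up differed between these tumours and colon. The summed colonocyte markers (9 genes) were 4812 to 10373 FPKM in colon, 446 and 4425 in the Cftr-wildtype tumours, 1262 and 4461 in the knockout tumours and 919 and 839 in the heterozygous ones. Smooth muscle markers summed to 2798 to 3563 FPKM in colon and 151 to 1177 in these tumours, and all 8 of them fell in both comparisons. The epithelium markers (10 genes) summed to 7911 to 11430.4 in colon and 6293 to 11979 in these tumours. Cftr-wildtype tumour 2 and knockout tumour 2 were near each other in colonocyte markers, and in some other lists such as fibroblast markers (392 and 347 FPKM). Their smooth muscle markers summed to 1177 and 285 FPKM and their epithelium markers to 9926 and 11979. Sult1a1 was 72.2 FPKM in the former and 31.1 in the latter. The part of these markers in the gene changes was not tested.

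Duodenal tumours of ApcMin heterozygous mice also held less of many of these enzymes. Relative to duodenum, 19 of 45 genes fell and 1, Gstm5, rose, where 7.55% of all genes fell and 7.84% rose. The median change was -0.93, against 0.01 over all genes. By family, 4 of 5 Ugt2, 3 of 5 Ugt1a, 4 of 7 Gstm, 4 of 7 Gstk, Gsto, Gstp and Gstt and 2 of 4 Gsta genes fell, while no gene of Sult1 or Akr1b passed. The count ranged from 10 to 29 with 1 specimen left out: 10 without knockout duodenum 1, 13 without knockout duodenum 2, 11 without heterozygous tumour 2 and 29 without heterozygous tumour 1. It was 1 where only these groups were fitted, with no spread shared from the other groups.

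Gstm3 was 142 and 35.8 FPKM in these tumours, and 407 to 785 in the duodena. Its log2 change was -2.96 (adjusted p = 0.0251), a call lost without either knockout duodenum or tumour 2 (adjusted p from 0.0578 to 0.0767). Gstm1 was 95.9 and 50.8 against 211 to 404 (log2 change -2.15), and Ugt2b5 was 17.1 and 5.97 against 33.5 to 82.97 (log2 change -2.35). Gsta3 went from 37.1 ± 12.0 (n = 3) to 10.5 ± 4.38 FPKM (n = 2, run 1; log2 change -1.72), and that call was lost without the same specimens (adjusted p from 0.0508 to 0.147). Both tumours lay below every duodenum in each of these genes, which the rule for naming changed genes required. Tumour 2 was the lower in each. That tumour also held 45482 FPKM of summed Paneth markers, against 13554 in tumour 1 and 16414 to 30113 in duodenum, and its enterocyte markers summed to 18807 FPKM against 27475 in tumour 1. The part of these cells was not tested.

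Whether the tumour change itself differed between organs was tested in heterozygous mice, as a comparison added after the values had been seen. It differed for 9 of 45 genes, more positive in colon for 4 and more negative for 5, with 9.45% and 8.59% of all genes. These shares are near those of all genes. The tumours of each organ come from a different animal, so organ and animal cannot be told apart in them. Sult1d1 was 21.1 FPKM in colon tumours against 122 and 138 in wildtype and knockout colon, and 128 in duodenal tumours against 145 and 118 in duodenum (difference of log2 changes -2.51, adjusted p = 0.00581). Gsta3 and Gsta4 differed the other way, by 2.52 and 3.19. The count was 20 without heterozygous duodenal tumour 1, 5 without knockout colon 1 and 4 without either heterozygous colon tumour.

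In duodenal tumours of Apc-wildtype Cftr-knockout mice, 1 of 45 genes rose and none fell against knockout duodenum (n = 2 each), where 3.94% of all genes rose and 4.37% fell. At an unadjusted p under 0.05 there were 8 of the 45 genes and 23% of all genes. The gene was Sult1c2, at 8.61 and 51.1 FPKM in the tumours and 2.19 and 2.54 in duodenum (log2 change 2.73, SE 0.78, adjusted p = 0.0486), a call lost without either knockout duodenum, without tumour 2 and with either run alone. Without tumour 1, 3 genes passed. Akr1b8 was 86.7 and 271 FPKM against 28.1 and 56.1 (adjusted p = 0.0526). The tumours were unlike each other: Gsta1 was 255 and 893 FPKM, Gsta4 199 and 696, and Gstm3 119 and 407, each higher in tumour 2. These tumours differed in sex-linked transcripts as well, with Xist high in tumour 1 and Ddx3y in tumour 2.

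Beside the ApcMin heterozygous duodenal tumours, the Apc-wildtype knockout ones had higher values for 39 of 45 genes, with a median difference of 0.92 against -0.01 over all genes, but none passed. Over all genes 0.0709% were higher and 0.319% lower, and at an unadjusted p under 0.05 there were 27 of the 45 and 16.7% of all genes. Gsta3 was 89.7 ± 25.5 FPKM against 10.5 ± 4.38 (n = 2 each, run 1; difference 3.01, SE 0.47, adjusted p = 0.0565). Gsto1 was 1070.3 ± 31.4 against 537 ± 97.9 (adjusted p = 0.0646). Gstm5 was lower, at 44.3 against 70.3 (adjusted p = 0.101). Without heterozygous tumour 1, 22 genes passed as higher, and without Apc-wildtype knockout tumour 1, 4 passed. Apc genotype, Cftr genotype and animal all differ between these groups and cannot be told apart.

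The 1 colon tumour of an Apc-wildtype knockout mouse was set against 2 knockout colons, with the lone tumour assumed to vary like the specimens of the other groups. In it 6 of 45 genes were lower and none higher, with 5.66% and 7.1% of all genes. Ugt2b34 was 76.5 FPKM against 257 (log2 change -1.73, adjusted p = 0.00327) and Akr1b7 2.40 against 12.2 (log2 change -1.92, adjusted p = 0.00683). Sult2b1, Sult4a1, Ugt2b35 and Gstp1 were the others. Sult1a1, at 25.9 against 194 FPKM, did not pass (adjusted p = 0.0727). The summed fibroblast markers were 1025 FPKM in this tumour and 137 to 438 in the other specimens, and their part was not tested. The count was 3 without either knockout colon, and 17 where only these groups were fitted, 2 of them shared.

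The effect of Cftr was compared within each tissue, using the specimens as labelled. In normal colon no member passed limma's test, nor did any gene (0% in each direction), 1 of 45 had an unadjusted p under 0.05 (7.34% of all genes), and 37 of 45 differences were positive, with a median of 0.28 against 0.01 over all genes. Gsta1 was 22.5 and 22.4 FPKM in knockout and 7.93 and 6.63 in wildtype colon (log2 difference 1.51, SE 0.80, adjusted p = 0.713). Gstp1 was 325 and 359.6 against 294 and 237 (adjusted p = 0.710). Over the 2 knockout colons the colonocyte markers also summed higher, 10373 and 9020 FPKM against 6334 and 4812. In that list Car1 was 3127 against 1081 FPKM, while Hoxb13 was 165 against 223. Epithelium markers (10972 and 11430 against 8840 and 7911) and goblet markers (19215 and 18014 against 14214 and 9836) summed higher too. So did proliferation markers (158 and 170 against 118 and 79.5), with every gene of that list higher in knockout and none past the test. Leukocyte markers summed lower, 39.2 and 53.4 against 99.8 and 79.7. The part of these markers was not tested.

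In normal duodenum, with 1 wildtype sample, no member passed and no gene did (0%), and 1 of 45 had an unadjusted p under 0.05 (2.59% of all genes). The median was -0.11. Gstm3 was 407 and 412 FPKM in knockout duodenum beside 785 and 767 in the wildtype specimens. Ugt2b36 was 9.62 and 9.55 beside 19.5 and 19.1 (log2 difference -0.94, SE 0.38, adjusted p = 1.00). Knockout duodenum 1 also held 1266 FPKM of summed pancreatic acinar markers, against at most 6.15 elsewhere. Summed Paneth markers were 17617 and 16414 FPKM in knockout duodenum beside 30113 and 29340.3 in wildtype. Most of that sum was Defa24 (mean 11533 against 22029), while Defa22 (407 against 171) and Ang4 (944 against 585) were higher in knockout. Endothelium markers summed to 62.4 and 60.8 beside 92.01 and 91.99, and adipocyte markers to 89.3 and 122 beside 241 and 231. Of the adipocyte list, Cidec was slightly higher in knockout (56.1 against 52.3). The part of these markers was not tested.

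**Figure D5:**
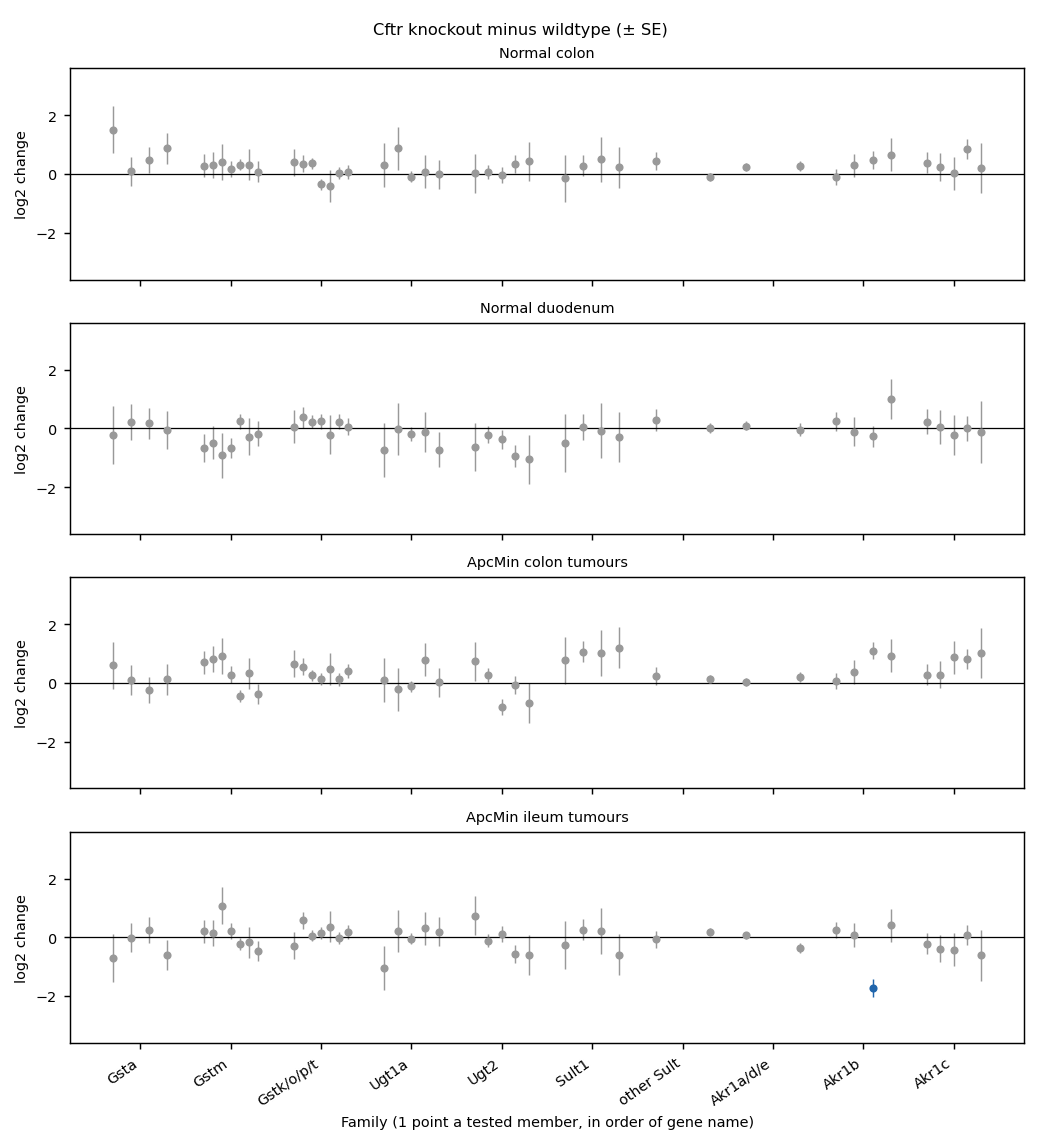
Difference of each tested gene between Cftr-knockout and Cftr-wildtype specimens, on the log2(FPKM + 1) scale with its standard error, by family, for normal colon, normal duodenum, ApcMin colon tumours and ApcMin ileum tumours. One point passed the test, Akr1b7 at -1.73 in ileum tumours.

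In ApcMin ileum tumours 1 member passed. Akr1b7 was 12.4 and 14.03 FPKM in knockout tumours and 49.0 and 43.5 in wildtype tumours (log2 difference -1.73, SE 0.30, adjusted p = 0.0454), where 0.0709% of all genes fell and 0.0851% rose. The groups did not overlap, but each comes from 1 animal, and the call was lost when any of the 4 specimens was left out (adjusted p from 0.213 to 0.506). In ApcMin colon tumours the same gene was 3.67 and 4.11 FPKM in knockout and 0.754 and 1.97 in wildtype (log2 difference 1.10, SE 0.30, adjusted p = 0.194). The difference between these effects was -2.83 (SE 0.42, adjusted p = 0.234) in a test added after the values had been seen.

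In ApcMin colon tumours no member passed, with 0.0142% of all genes higher and 0.0638% lower in knockout, and 5 members (12.2% of all genes) had an unadjusted p under 0.05. The Cftr-wildtype tumours were unlike each other: Sult1d1 was 6.63 and 74.0 FPKM, Akr1c13 66.5 and 183, and Ugt1a7c 18.5 and 80.4, while the knockout tumours held 41.3 and 69.6, 101 and 179, and 55.4 and 83.4. Without wildtype tumour 2, 15 members passed, 14 of them higher in knockout. The change from colon to tumour differed between Cftr genotypes for no member (0% of all genes rose and 0.00709% fell; 2 members and 8.56% of all genes had an unadjusted p under 0.05), and for 7 without that tumour. Its colonocyte markers, at 4425 FPKM, lay near the 4461 of knockout tumour 2, while wildtype tumour 1 had 446.

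The genes that feed, regulate and follow these enzymes were read from lists of other pathway members. Their counts stand beside shares of all genes of 28.9% higher and 27.3% lower in duodenum than in colon, and, for tumours, 22.3% up and 23.1% down in Cftr-wildtype and knockout colon, 22.9% and 22.4% in heterozygous colon and 7.84% and 7.55% in heterozygous duodenum. Nothing particular to a list is read from its count. Of 15 NRF2 targets, 9 were higher and 1 lower in duodenum than in colon, among them Prdx1, a peroxidase of hydrogen peroxide (1220.3 against 389 FPKM). In Cftr-wildtype and knockout ApcMin colon tumours 5 rose and 1 fell, in heterozygous colon tumours 4 rose and 4 fell, and in heterozygous duodenal tumours 1, the quinone reductase Nqo1, fell (24.6 against 65.1 FPKM, adjusted p = 0.0289). Slc7a11, which imports cystine for glutathione synthesis and is on the NRF2 list too, rose in both colon comparisons, from 0.707 to 3.45 FPKM (log2 change 1.32) and from 0.556 to 5.02 (log2 change 1.93). Of the 10 glutathione supply genes, 5 were higher and 1 lower in duodenum. Among them was Ggt1, which cleaves glutathione outside the cell (364 against 6.50 FPKM). In the 3 ApcMin tumour comparisons, in the order above, 2, 1 and 0 of that list rose and 1, 3 and 1 fell.

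Of 10 genes supplying UDP-glucuronate and PAPS, 2 were higher and 5 lower in duodenum than in colon. Bpnt1, which clears the by-product of sulfation, was 435 against 57.1 FPKM, while the sulfate transporter Slc26a2 was 25.8 against 263. Ugdh, which makes UDP-glucuronate, fell from 276 to 78.3 FPKM in Cftr-wildtype and knockout colon tumours and from 256 to 43.0 in heterozygous ones, where 2 and 5 of the list fell and none rose. In heterozygous duodenal tumours 1 rose and 2 fell, among them Papss2, which makes PAPS (139 against 755 FPKM, adjusted p = 0.0413). Of 8 export pumps, Abcc2, which exports conjugates, was 112 FPKM in duodenum and 0.871 in colon, the only pump that was higher there, and 2 were lower. Abcc4 rose in all 3 ApcMin tumour comparisons, for example from 1.11 to 5.29 FPKM in duodenum (adjusted p = 0.00510). On that list 3 rose and 3 fell in each colon comparison, and 2 rose and 2 fell in the duodenal one.

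Of the 15 tested regulators, 8 were higher in duodenum than in colon and 1 lower, with Gata4, a proximal gut factor, at 69.9 against 0.163 FPKM and Nr1i3, the receptor CAR, at 41.8 against 3.15. In the colon tumours 6 fell and none rose in the Cftr-wildtype and knockout mice, and 9 fell and 1 rose in the heterozygous mice, including Vdr, the vitamin D receptor (138 to 48.3 and 129 to 29.9 FPKM). In heterozygous duodenal tumours 2 fell, Nr1i3 (10.1 against 42.9 FPKM) and Nfe2l2, which encodes NRF2 (111 against 204, adjusted p = 0.0266). Of 18 other reductases and hydrolases, 9 were higher and 1 lower in duodenum, and 7, 11 and 6 fell with none rising in the 3 ApcMin tumour comparisons, as in Ces1f, a carboxylesterase, at 40.9 against 244 FPKM in duodenum. In none of these 6 lists did a gene pass in the 4 comparisons of Cftr genotype within a tissue.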

How the data were processed

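Whole-transcriptome libraries of 23 intestinal specimens were sequenced, with 15 of them in the first run and 19 in the second. The RNA came from RNAlater tissue and was selected by its poly(A) tail, per the labels' protocols. TopHat2 2.0.13 and Cuffnorm, with the mm10 build, are the mapping and quantifying tools in the submitters' processing notes, beside FastQC. The authors deposited FPKM values in 1 table of 23356 rows and 68 columns, with no counts, so no counting interval was computed. Relative depth was estimated by comparing values of at most 0.2 between columns, taking the ratio found most often.

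Columns were averaged per specimen. The 2 run 1 columns of wildtype colon specimen 2 were left out of the main fits. limma 3.58.1 in R 4.3.3 (lmFit, then eBayes with a trend) was fitted to log2(FPKM + 1) over the 14105 genes that reached 1 FPKM in 2 specimens or more, with Benjamini-Hochberg adjustment over all of them and a threshold of 0.05, and was tested on simulated data first. A fold change on this scale understates that of low genes. Comparisons with heterozygous tumours used run 1 and ApcMin colon tumours against colon run 2, and the group means beside them are from that run, while values per specimen average all its columns. Groups outside a comparison shared their spread with it.

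The duodenum and colon of an Apc-wildtype animal carry its number, so animals pair those groups. ApcMin ileum and colon tumours of a Cftr genotype also share an animal number, with no tumour matched to another. Other shared replicate numbers mark no stated pairing, and over 25 pairs of groups the correlation of deviations ran from -0.32 to 0.35. Members and lists were chosen with earlier results of these data known. Genes are named by rule: levels for the 3 highest of each family and those at 20 FPKM or more, and in each of 14 comparisons up to 8 rises and 8 falls past the test, not overlapping and at 2 FPKM or more, or, with fewer than 3 past it, the 3 of smallest p in each direction. Some genes named for their levels also carry test values outside that rule, such as Sult2b1 between normal organs and Sult1b1 and Ugt2b34 in colon tumours. List genes are the 3 of smallest p. Genes set beside these to compare groups (Sult1a1 in the Apc-wildtype colon tumour, Gstm5 in all tumours, Ugt2b38, and Gsta1, Gstm3, Sult1d1, Akr1c13 and Ugt1a7c where named for Cftr genotype or single tumours) were chosen after their values were seen. The alternatives tried were quantile normalisation, dropping the filter, a pseudocount of 0.1, fits of the compared groups alone and 1 run alone. Others were different treatment of the wildtype duodenum and colon columns, a block by replicate or animal, and leaving out each specimen. Protein sequences were not used here.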

Additional observations from a re-analysis of the deposited data

Results flagged for a closer look

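In ApcMin heterozygous mice, the change from normal tissue to tumour differed between colon and duodenum for 9 of 45 genes by the added interaction test, 4 more positive and 5 more negative in colon, near the 9.45% and 8.59% of all genes. The values are given as the colon change minus the duodenal change on the log2 scale. It was -2.84 for Sult1a1 (adjusted p = 0.00522), -2.51 for Sult1d1, -1.13 for Sult1b1, -1.18 for Sult4a1 and -0.68 for Ugt2b34. It was 3.19 for Gsta4 (adjusted p = 0.0470), 2.52 for Gsta3, 1.67 for Ugt2b35 and 0.88 for Ugt1a6b. Ugt1a6b was 0.136 FPKM in colon tumours and 0.166 and 0.301 in knockout and wildtype colon, so little fall could show there. Sult4a1 was at most 2.16 FPKM in these groups. With 1 specimen left out, the calls of Gsta3, Ugt1a6b, Ugt2b34 and Ugt2b35 were each lost in 3 to 8 ways (adjusted p up to 0.108, 0.0928, 0.148 and 0.153), and that of Sult4a1 without heterozygous colon tumour 2 (0.0513). The Gsta4 call was not followed with a specimen left out. Sult1a1 was 2.72 FPKM in the duodenal tumours and 3.13 and 4.69 in knockout and wildtype duodenum. The tumours of each organ come from a different animal, so organ and animal cannot be told apart in them. The explanation of these differences was not tested.

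The run 1 library of wildtype colon specimen 2, which was left out, held Gsta1 at 34.9 FPKM and Ugt2a3 at 5.62 FPKM, well above the other wildtype colon libraries. In run 2 the same specimen held 6.63 and 0.0199 FPKM.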

How the results depend on the processing

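In 9 of the 14 comparisons, and in the first of the 2 differences between changes that were added after the data had been seen, every setting that kept all specimens left the number of members called within 1.5 times the reported one. In the others it moved. In ApcMin ileum tumours, with 1 call between Cftr genotypes, a pseudocount of 0.1 left 0. In heterozygous duodenal tumours, with 20 calls against duodenum, dropping the filter left 12 and fitting the compared groups alone left 1. In Apc-wildtype knockout duodenal tumours, with 1 call, quantile normalisation, the compared groups alone and run 1 alone each left 0, and counting the wildtype duodenum as 2 specimens gave 2. In the Apc-wildtype knockout colon tumour, with 6 calls, the same settings gave 17 (compared groups alone, 2 of them shared), 12 (run 1 alone) and 11 (2 duodenum specimens). Between the 2 kinds of duodenal tumour, with 0 calls, quantile normalisation gave 1, the 2 duodenum specimens 6 and keeping the left-out colon columns 4. The organ difference of the heterozygous tumour changes, with 9 calls, gave 14 with quantile normalisation and 14 with 2 duodenum specimens. The cause of these moves was not tested.

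Fits with a block used the compared groups alone and counted the wildtype duodenum as 2 specimens. With the animal as a block, 39 genes were called for duodenum against colon (35 as reported). With the replicate number as a block, 3 were called in ileum tumours between Cftr genotypes and 0 in Apc-wildtype knockout duodenal tumours. The organ difference of heterozygous changes then had 17. The block fits moved no other count by over 1.5 times. No paired analysis was possible for the Apc-wildtype knockout colon tumour because it is 1 specimen.

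Leaving out 1 specimen gave 30 to 36 calls for duodenum against colon and 0 to 0 for Cftr genotype in normal colon and in normal duodenum. It gave 0 to 15 for Cftr genotype in ApcMin colon tumours, 0 to 0 in ileum tumours, and 18 to 32 for ApcMin colon tumours against colon. The difference of that change between Cftr genotypes had 0 to 7. Heterozygous tumours had 14 to 24 in colon and 10 to 29 in duodenum. Apc-wildtype knockout tumours had 0 to 3 in duodenum and 3 to 3 in colon. The comparison of duodenal tumours had 0 to 22, ileum against colon tumours 9 to 17, duodenal against colon tumours 12 to 24, and the added differences 0 to 8 and 4 to 20.

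Of the values of named genes under other settings, 1457 kept their direction and side of the threshold, 122 lost and 26 gained the threshold, and 4 changed sign. Sult4a1 between Cftr genotypes in colon turned from -0.10 to 0.026 with quantile normalisation and ranged from -0.24 to 0.047 with 1 specimen left out. Sult1b1 in the genotype difference of tumour changes ranged from -0.0027 without Cftr-wildtype tumour 1 to 1.57 without tumour 2. Ugt1a1 between the kinds of duodenal tumour ranged from -0.52 to 0.19 without heterozygous tumour 2 and tumour 1. Depth is known only in relative terms, with a range of 1.83-fold, and limits mainly genes of low FPKM.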
